A study of Mus musculus and Homo sapiens with 15 samples.

Results

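The genes described here mark the double-positive stage of thymocyte development and the choice between the CD4 and CD8 lineages. They are 10 genes, chosen by name: Cd4, Cd8a, Cd8b1, Ptcra, Cd1d1, Arpp21, Tcf7, Lef1, Zbtb7b and Runx3. All 10 were found by symbol in both mouse count tables, which list 52340 genes for thymus tumours and 56691 genes for grafted tumours. Their read counts were compared across 13 RNA sequencing libraries of thymus with lymphoma or of grafted tumours from mice. In 9 of these libraries the tissue was thymus of W/W mice, which carry the p53 R282W mutation on both alleles and had T-lymphomas, sampled at day 150 after birth. Of these, 3 came from mice given water, the untreated controls, which carry the same mutation and tumours. The other 6 came from mice given arsenic trioxide (ATO), an arsenic compound used as a leukaemia drug: 3 whose tumours were progressing and 3 whose tumours were regressing when sampled. Outcome defines these groups, so treatment and outcome cannot be told apart in a comparison of either with water. The remaining 4 libraries are tumours of a model labelled CDX in C57 mice of genotype WT, 2 given PBS and 2 given ATO. The labels do not name the grafted cells or their p53 status. Nor do they say which replicates are separate animals, so p-values measure the spread between these libraries, which may in part be technical.

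Thymocytes pass from a double-negative stage, without CD4 or CD8, through a double-positive stage with both, to single-positive CD4 or CD8 T cells. Cells that have rearranged the T-cell receptor beta chain pair it with the pre-T alpha chain, encoded by Ptcra, and then switch on both co-receptors and recombine the alpha chain with the RAG proteins. Positive selection on major histocompatibility complex (MHC) molecules ends this stage, after which the factor ThPOK, encoded by Zbtb7b, sets the CD4 fate and RUNX3 the CD8 fate, each acting to repress the other's programme. T-cell lymphomas of p53-mutant mice arise in the thymus, and their stage is commonly read from these genes.

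Promoter windows from the RefSeq table (GRCm38.p6, 250 bases before to 50 bases after a start site) were found for 7 of the 10 genes; the table gave none for Cd4, Cd8b1 and Cd1d1. A set of 4 motifs was searched on both strands, none overlapping another in the sequences shown: CAGNTG (E-box, bound by E proteins), CTTTGA (TCF/LEF), TGTGGT (RUNX) and TGGGAA (RBPJ, the DNA-binding partner of Notch). Among 32851 windows of the same length, 51.4% held CAGNTG, 16.0% CTTTGA, 16.8% TGTGGT and 25.6% TGGGAA. The windows of Ptcra and Arpp21 are shown because these genes had the largest differences between water and ATO-treated thymus tumours, and those of Zbtb7b and Runx3 because they are the opposed lineage factors. Letters run 5′ to 3′ on the gene's own strand, with motif matches on either strand in capitals. They lie at chr17:46763663-46763962 (minus strand), chr9:112233673-112233972 (minus strand, the most upstream of 9 listed windows), chr3:89393329-89393628 (minus strand, the more upstream of 2) and chr4:135120395-135120694 (plus strand, the more upstream of 2).
Ptcra: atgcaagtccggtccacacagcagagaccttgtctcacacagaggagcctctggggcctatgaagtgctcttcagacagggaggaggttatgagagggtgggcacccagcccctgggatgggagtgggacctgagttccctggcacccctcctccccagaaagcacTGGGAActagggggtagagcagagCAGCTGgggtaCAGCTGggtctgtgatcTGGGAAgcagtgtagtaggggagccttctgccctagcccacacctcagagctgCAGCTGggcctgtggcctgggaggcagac
Arpp21: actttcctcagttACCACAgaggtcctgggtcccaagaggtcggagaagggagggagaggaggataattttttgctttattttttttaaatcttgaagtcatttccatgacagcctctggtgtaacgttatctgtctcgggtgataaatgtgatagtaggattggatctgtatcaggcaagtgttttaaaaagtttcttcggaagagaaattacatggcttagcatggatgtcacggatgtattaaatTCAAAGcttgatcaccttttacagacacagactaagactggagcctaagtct
Zbtb7b: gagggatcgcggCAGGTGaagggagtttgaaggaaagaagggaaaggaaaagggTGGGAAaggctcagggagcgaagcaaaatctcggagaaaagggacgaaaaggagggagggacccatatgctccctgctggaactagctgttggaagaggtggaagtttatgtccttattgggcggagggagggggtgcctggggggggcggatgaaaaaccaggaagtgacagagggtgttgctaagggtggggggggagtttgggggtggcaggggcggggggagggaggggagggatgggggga
Runx3: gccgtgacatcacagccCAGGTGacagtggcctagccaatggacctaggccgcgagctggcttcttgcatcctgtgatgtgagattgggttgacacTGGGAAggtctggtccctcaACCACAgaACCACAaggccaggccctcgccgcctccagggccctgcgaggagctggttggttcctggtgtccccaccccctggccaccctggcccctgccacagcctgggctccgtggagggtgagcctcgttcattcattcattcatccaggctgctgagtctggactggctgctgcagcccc

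The Ptcra window held 3 matches to CAGNTG, at -60, -49 and 22 relative to the start site, and 2 to TGGGAA, at -84 and -32. Arpp21 had a match to TGTGGT at -237 and one to CTTTGA at -2, each read on the other strand. In Zbtb7b a match to CAGNTG stood at -238 and one to TGGGAA at -196. Runx3 held 2 matches to TGTGGT, at -134 and -126 and read on the other strand, with a match to CAGNTG at -233 and one to TGGGAA at -154. Among the windows not shown, Cd8a held a match to CAGNTG at -2 and Tcf7 one at -159. Cd8a also held a match to TGGGAA at -89, and Lef1 one at 39. The windows of Tcf7, Arpp21 and Zbtb7b lie wholly inside the span of the gene. A match describes the letters and is not evidence of binding.

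Total counts ran from 12800367 to 17550594 per library in the thymus table and from 12922147 to 15637644 in the graft table. Levels are given as CPM, a count scaled to a common library size after TMM normalization, a correction for composition. Its factors were 0.747 in water replicate 2 and 0.794 in progressing replicate 2, against 1.03 to 1.16 in the other 7 thymus libraries. Mitochondrial genes took 2.08% to 8.83% of the thymus counts, 0.521% and 1.02% with PBS in the grafts, and 5.98% and 4.03% with ATO. A list of genes of the T-cell receptor complex holds Cd3d, Cd3e, Cd3g, Cd247, Lck, Zap70, Lat and Lcp2. It summed to at least 1551 CPM in every thymus library and to at least 3388 CPM in every graft. A sum does not show the level of any single gene. In bulk tissue, fewer cells of a type and less RNA per cell cannot be told apart. Lymphoma cells and other thymocytes in the same thymus cannot be told apart either. Levels given for thymus tumours are therefore levels of the whole thymus sample.

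Against water, regressing tumours had 5 of the 10 genes higher and 0 lower: Cd4, Cd8a, Ptcra, Cd1d1 and Arpp21. Over all 18119 genes tested, 3.13% were called higher and 4.57% lower. In progressing tumours 3 of the 10 were higher than in water (Cd4, Ptcra and Arpp21) and 1, Zbtb7b, was lower, where 4.77% of all genes were called higher and 7.13% lower. Between the outcomes 1 of the 10 passed, Zbtb7b, higher in regressing tumours, with 6.45% of all genes called higher and 6.18% lower. The median log2 fold change of the 10 genes was 2.59 for regressing against water and 1.77 for progressing against water, beside -0.11 and -0.04 over all genes tested, and the same with Ptcra set at the bound given below. For regressing against progressing it was 0.96, beside -0.07. A gene is called where edgeR's quasi-likelihood test gave a p under 0.05 after Benjamini-Hochberg adjustment over all genes. SE is an approximate standard error, the absolute log2 fold change divided by the square root of that test's F statistic. For the counts of 0 lower, 1 gene was lower at an unadjusted p under 0.05 against water (Runx3) and 0 between the outcomes, DESeq2 called 1 and 0, and limma-voom 0 and 0. Fits that left out a library in turn called 2 to 6 of the 10 in regressing against water (2 without regressing replicate 1 or 2), 3 to 6 in progressing against water and 0 to 2 between the outcomes (0 without progressing replicate 3 or any of the 3 regressing libraries).

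Some markers of other cells also differed between regressing tumours and water. Of 8 thymic epithelium markers, 3 were called higher (Psmb11 by 6.70, Prss16 by 5.96 and Ccl25 by 3.84 on the log2 scale) and 0 lower. DESeq2 and limma-voom also called 3 higher and 0 lower. The other markers of this list went in both directions, with log2 fold changes of -2.04 to 1.20, and were not called. Of 5 fibroblast markers, 2 were lower and 0 higher. Of 6 B-cell markers, 1 was lower and 0 higher, with 5 lower in DESeq2 and 0 in limma-voom. The B-cell markers summed to 1177, 3156 and 68.3 CPM in water replicates 1, 2 and 3 and to 95.6 to 156 CPM in regressing libraries. The 6 adipocyte markers, whose regressing and water ranges overlapped, summed to 38.6, 143 and 81.7 CPM in water replicates 1, 2 and 3. They summed to 119, 1265 and 240 CPM in progressing and 140, 565 and 4802 CPM in regressing replicates 1, 2 and 3. Of these, 3 of 6 were called higher in regressing tumours than in water (Plin1, Lep and Ucp1), with 1 higher in limma-voom and 5 in DESeq2. Regressing replicate 3, with the highest adipocyte marker sum, was the lowest regressing library for Cd4, Cd8a, Cd8b1, Ptcra, Arpp21, Tcf7 and Lef1 and the highest for Cd1d1 and Zbtb7b. Without it, Cd4, Cd8a, Ptcra, Cd1d1 and Arpp21 were still called higher in regressing tumours than in water. The part of thymic epithelium and other cells in these differences was not tested.

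**Figure D1:**
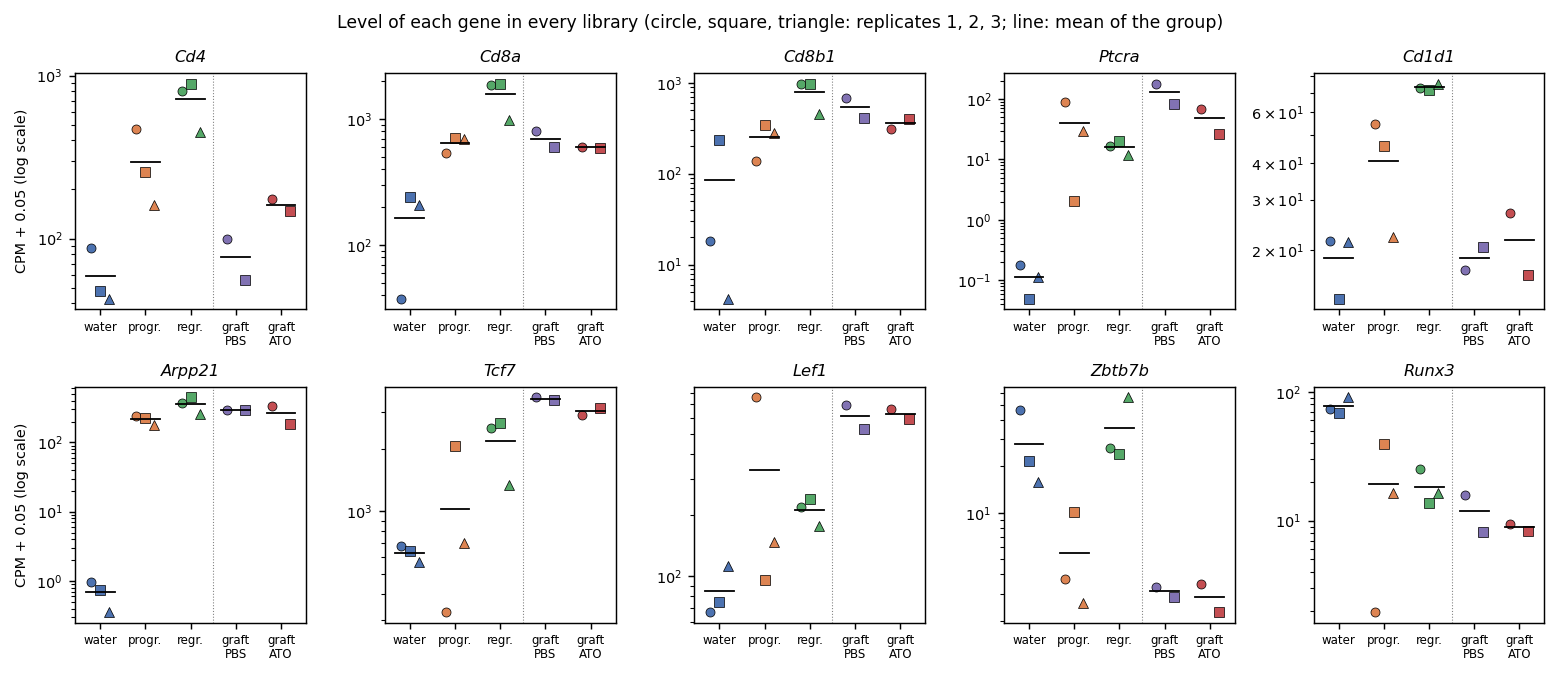
Level of the 10 genes in each of the 13 libraries, as CPM + 0.05 on a log axis, by group; circles, squares and triangles are replicates 1, 2 and 3 and lines are group means. Thymus (left of the dotted line) and graft tables were scaled separately. Arpp21 and Ptcra were near 0 in the water libraries alone, and Zbtb7b was lowest in the progressing and graft libraries.

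Arpp21, which encodes a cyclic AMP-regulated phosphoprotein abundant in immature thymocytes, set the water libraries apart from all others. Its level was 0.903, 0.687 and 0.309 CPM in water replicates 1, 2 and 3, from 14, 9 and 5 reads. In progressing tumours it was 243, 225 and 178 CPM, and in regressing tumours 367, 448 and 258 CPM. No library of either ATO group came near the water libraries. Arpp21 was higher in regressing tumours by 9.13 on the log2 scale (SE 0.51, adjusted p = 4.36e-05) and in progressing tumours by 8.40 (SE 0.50, adjusted p = 7.91e-05), and in each comparison Arpp21 had the smallest p of the 18119 genes. Both calls held in the 6 fits that left out a library in turn. Regressing and progressing tumours did not overlap either, but the difference between them, 0.73 (SE 0.35), did not pass (adjusted p = 0.176). Arpp21 (ENSMUSG00000032503, chr9:112065091-112235938 in GRCm38, minus strand) has 17.428 kb of exons, of which 3.33% overlap the opposite-strand gene 2900079G21Rik.

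Ptcra (ENSMUSG00000036858, chr17:46755663-46763712, minus strand), whose product pairs with the beta chain before the alpha chain is made, was close to absent from water tumours. It had 2, 0 and 1 reads in water replicates 1, 2 and 3, all at or under a floor of 3 counts per library, which is 0.203 CPM on average. Progressing tumours had 88.8, 2.03 and 29.9 CPM, and regressing tumours 16.5, 20.0 and 11.6 CPM. Progressing replicate 2 was thus far below the other 2 progressing libraries, yet above all water libraries. Set against the floor, Ptcra was at least 79.1-fold higher in regressing (adjusted p = 0.0140) and at least 199-fold higher in progressing tumours (adjusted p = 0.00493). The limit in progressing tumours rests on progressing replicate 1, without which it was 78.8-fold, and progressing replicate 2 alone lay 10.0 times above the floor. Without regressing replicate 1 or 2 the call in regressing tumours was lost, with an adjusted p of up to 0.0621; limma-voom called neither (adjusted p = 0.0731 and 0.0635). The ranges of the 2 ATO groups overlapped, and their difference did not pass (log2 fold change -1.33, SE 0.92, adjusted p = 0.345).

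Cd4 (ENSMUSG00000023274, chr6:124864692-124888221, minus strand) encodes the co-receptor for MHC class II. Water replicates 1, 2 and 3 had 87.2, 47.3 and 42.8 CPM, progressing replicates 469.6, 255 and 161 CPM, and regressing replicates 808, 888 and 449.8 CPM. Every ATO library lay above every water library, while the top progressing library overlapped the regressing range. Cd4 was higher in regressing tumours by a log2 fold change of 3.60 (SE 0.51, adjusted p = 0.00685), or 12.1-fold, and in progressing tumours by 2.32 (SE 0.48, adjusted p = 0.0141), or 4.99-fold. Leaving out any of the 6 libraries in turn ended neither call. The difference between the outcomes was 1.28 (SE 0.46, adjusted p = 0.0908).

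Cd8a (ENSMUSG00000053977, chr6:71373427-71379173, plus strand) and Cd8b1 (ENSMUSG00000053044, chr6:71322788-71337494, plus strand) encode the alpha and beta chains of the co-receptor for MHC class I and lie next to each other on chromosome 6. Cd8a stood at 37.7, 243 and 209.8 CPM in water, at 542, 705 and 700.3 CPM in progressing and at 1868, 1899 and 989.7 CPM in regressing tumours. These 3 groups did not overlap. Cd8a was 9.71-fold higher in regressing tumours than in water (log2 fold change 3.28, SE 0.62, adjusted p = 0.0168), a call lost without regressing replicate 1 or 2 (adjusted p up to 0.0822). In progressing tumours its difference from water, 1.99 (SE 0.59), missed the threshold with an adjusted p of 0.0519. That difference passed in 5 of 8 fits with other scaling, tools, filters or library sets, and in 1 of 6 fits without a library. Regressing against progressing it was 1.29 (SE 0.58, adjusted p = 0.153).

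Cd8b1 had 18.3, 234 and 4.20 CPM in water replicates 1, 2 and 3, so that water replicate 2 held more than the other 2 combined. The progressing libraries had 137, 340.1 and 280.4 CPM and the regressing libraries 964, 969 and 448 CPM. Regressing libraries were above all others, and progressing libraries overlapped water. The fitted difference from water was 3.21 (SE 1.12, adjusted p = 0.0964) in regressing and 1.56 (SE 1.06, adjusted p = 0.363) in progressing tumours. Without water replicate 2 both passed, at 6.21 (adjusted p = 0.0111) and 4.47 (adjusted p = 0.00894). Of the 50-base stretches in Cd8b1 transcripts 6.0% also occur in other genes, so some of its reads may be shared.

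Dendritic cells and macrophages can also carry CD8 alpha chains or CD4. The 7 dendritic cell markers (Itgax, Xcr1, Clec9a, Zbtb46, Batf3, Siglech and Flt3) summed to 73.5 to 139 CPM in water, 6.23 to 24.4 CPM in progressing and 46.4 to 93.4 CPM in regressing libraries. Of these 7, 4 were lower in progressing tumours than in water and 0 were called in regressing tumours. The 7 macrophage markers summed to 460 to 1448 CPM in water, 153 to 695 CPM in progressing and 293 to 480 CPM in regressing libraries, with 1 of 7 lower in progressing tumours. Their part in the Cd4 and Cd8a differences was not tested. T-cell receptor complex genes summed to 1551 to 1903 CPM in water, 2581 to 3438 CPM in progressing and 2775 to 4670 CPM in regressing libraries.

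Cd1d1 (ENSMUSG00000028076, chr3:86995834-86999441, minus strand) encodes CD1d, the lipid-presenting molecule on double-positive thymocytes that selects natural killer T cells. Its level was 21.5, 13.6 and 21.4 CPM in water, 54.6, 45.7 and 22.2 CPM in progressing and 72.8, 71.8 and 75.2 CPM in regressing tumours. The regressing libraries were close to each other and above all the rest, while progressing replicate 3 was just above water. Cd1d1 was 3.88-fold higher in regressing tumours than in water (log2 fold change 1.96, SE 0.38, adjusted p = 0.0177), a call lost without regressing replicate 1 or 2 (adjusted p up to 0.0935). For progressing tumours the difference was 1.12 (SE 0.37, adjusted p = 0.0747), and between the outcomes 0.84 (SE 0.37, adjusted p = 0.145). The 50-base stretches it shares with its near copy Cd1d2 make up 19.1% of Cd1d1 transcripts, so its reads may in part belong to that gene.

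Tcf7 (ENSMUSG00000000782, chr11:52252371-52283331, minus strand) encodes TCF1, which maintains T-lineage identity and the survival of double-positive cells. Its level was 679, 641 and 571 CPM in water replicates, 328, 2051 and 707 CPM in progressing and 2517, 2666 and 1341 CPM in regressing replicates. All regressing libraries exceeded all water libraries, and the progressing libraries lay on both sides of water. None of the 3 differences passed: 1.79 (SE 0.59, adjusted p = 0.0848) for regressing against water, 0.71 (SE 0.58, adjusted p = 0.462) for progressing against water and 1.08 (SE 0.58, adjusted p = 0.226) between the outcomes. Among 8 fits with other scaling, tools, filters or library sets, 5 called Tcf7 higher in regressing tumours than in water. Of these 8, 0 called it in progressing tumours against water and 1 between the outcomes. Without progressing replicate 2 the value for progressing against water turned to -0.22.

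Lef1 (ENSMUSG00000027985, chr3:131110471-131224356, plus strand) encodes LEF1, the partner of TCF1. It stood at 66.9, 75.1 and 113 CPM in water, 759, 95.6 and 148 CPM in progressing and 219, 241 and 177 CPM in regressing tumours. Progressing replicate 1, which had the lowest Tcf7 of the 9 libraries, had the highest Lef1 and the highest Ptcra. Lef1 did not pass in regressing (1.32, SE 0.65, adjusted p = 0.209) or progressing tumours (1.98, SE 0.66, adjusted p = 0.0759) against water, nor between them (-0.66, SE 0.64, adjusted p = 0.505). The opposite-strand gene Gm43352 overlaps 13.7% of its exonic bases, and the sources used here do not say whether counting used strand.

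Zbtb7b (ENSMUSG00000028042, chr3:89377644-89394776, minus strand), which encodes the CD4-lineage factor ThPOK, was the only one of the 10 genes called between the outcomes. Water replicates had 46.3, 21.6 and 15.7 CPM, progressing replicates 3.70, 10.1 and 2.57 CPM, and regressing replicates 26.4, 24.1 and 56.1 CPM. Progressing libraries were below all others, whereas water and regressing libraries overlapped. Zbtb7b was 5.11-fold lower in progressing tumours than in water (log2 fold change -2.35, SE 0.64, adjusted p = 0.0378) and 6.51-fold higher in regressing than in progressing tumours (2.70, SE 0.64, adjusted p = 0.0271). Against water, regressing tumours differed by 0.35 (SE 0.60, adjusted p = 0.735).

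The call in progressing tumours was lost without water replicate 1 or progressing replicate 1 or 3 (adjusted p up to 0.115) and with the regressing libraries left out of the fit (adjusted p = 0.0830). Between the outcomes Zbtb7b kept its call without progressing replicate 2 and lost it in the other 5 fits without a library (adjusted p up to 0.0833). Its log2 fold change there was 2.31 to 3.52. ThPOK is also made by other cells, and marker levels of some other cells moved in the same direction. Between the outcomes, 4 of 7 dendritic cell and 3 of 6 B-cell markers were called higher in regressing tumours and 0 lower. The 4 natural killer cell markers tested were higher too. In limma-voom 5, 0 and 1 markers of these 3 lists were higher. The 8 thymic epithelium markers summed to 157 to 917 CPM in water, 41.6 to 102 CPM in progressing and 1483 to 1692 CPM in regressing libraries, and 6 of 8 were higher in regressing than in progressing tumours. Their defining factor Foxn1 was at 0.185 to 0.338 CPM in progressing and 9.69 to 14.2 CPM in regressing tumours. Of 5 fibroblast markers, 2 collagen genes went the other way, lower in regressing than in progressing tumours (Col1a1 by -3.96 and Col3a1 by -3.60). The other fibroblast markers had log2 fold changes of -0.97 to 0.44 and were not called. Of the 7 macrophage markers, 0 were called between the outcomes. The part of these cells in the Zbtb7b difference was not tested.

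Runx3 (ENSMUSG00000070691, chr4:135120652-135177990, plus strand) encodes the factor of CD8, natural killer and other cytotoxic cells. It was at 74.0, 69.0 and 90.7 CPM in water, 1.91, 39.1 and 16.4 CPM in progressing and 25.1, 13.6 and 16.4 CPM in regressing tumours. All 6 ATO libraries were below all 3 water libraries, but neither difference passed: -2.08 (SE 0.76, adjusted p = 0.106) in regressing and -2.03 (SE 0.76, adjusted p = 0.107) in progressing tumours. Among 8 fits with other scaling, tools, filters or library sets, 3 called Runx3 lower in regressing and 4 in progressing tumours. Of 6 fits without a library, 0 called it in regressing and 1 in progressing tumours. The outcomes overlapped and differed by -0.05 (SE 0.73, adjusted p = 0.967).

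Natural killer cells and innate-like T cells also use RUNX3. The 5 natural killer cell markers summed to 48.2, 139 and 15.9 CPM in water replicates, 0.432 to 0.735 CPM in progressing and 13.1 to 26.4 CPM in regressing libraries, and 4 of the 4 tested were lower in progressing tumours than in water. In regressing tumours edgeR called 0 of the 4 against water (2 lower at an unadjusted p under 0.05, 1 lower in DESeq2 and 0 in limma-voom). Between the outcomes the 4 were higher in regressing tumours. The fifth, Ncr1, had 0 reads in every progressing library. The 5 gamma-delta and innate-like T-cell markers summed to 378, 810 and 1159 CPM in water, 9.74 to 163 CPM in progressing and 36.8 to 141 CPM in regressing libraries, with 1 of 5 lower in each ATO group. Their part in the Runx3 levels was not tested.

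**Figure D2:**
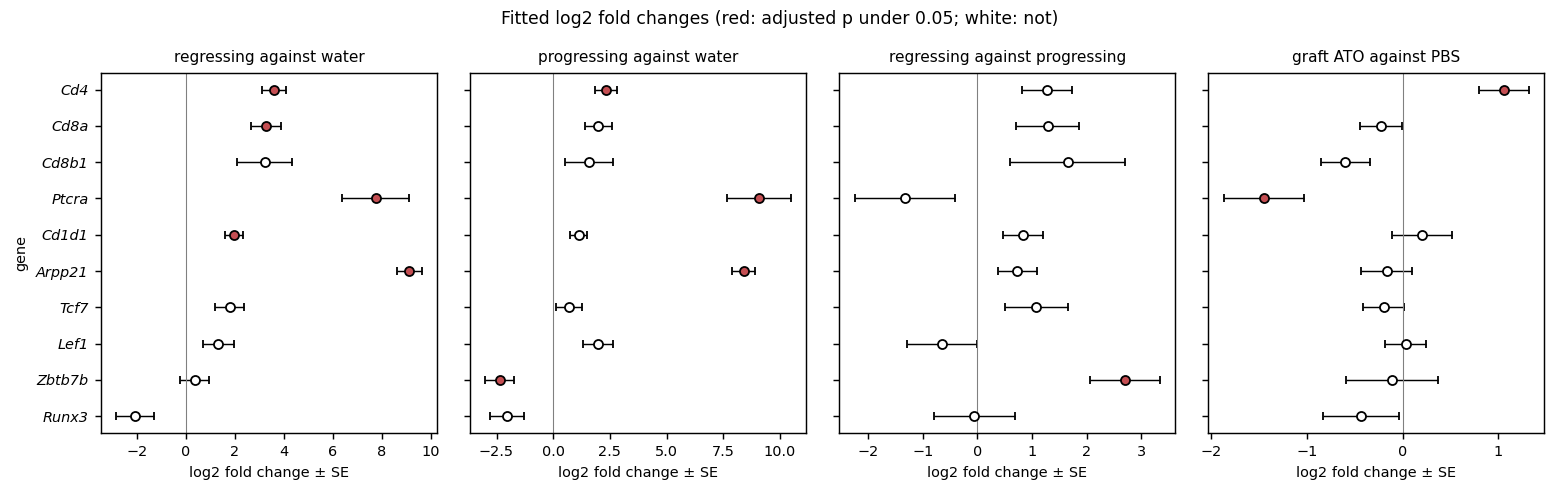
Fitted log2 fold change of each gene with its approximate standard error, derived from the F statistic, in the 4 comparisons (x axes differ between panels). Red points have an adjusted p under 0.05. For Ptcra against water the fitted value depends on the prior count, since the water libraries are at the floor. Cd4 is red in all comparisons but regressing against progressing, where Zbtb7b alone passed.

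In the grafts, 1 of the 10 genes was higher with ATO than with PBS (Cd4) and 1 was lower (Ptcra), where 7.37% of the 15468 genes tested were called higher and 6.57% lower. Higher genes made up 52.9% of those calls, and 77.6% with total counts in place of TMM. The median log2 fold change of the 10 genes was -0.18, beside 0.04 over all genes tested. Cd4 levels were 98.9 and 55.6 CPM with PBS and 174 and 147 CPM with ATO, which do not overlap. Cd4 was 2.08-fold higher with ATO (log2 fold change 1.06, SE 0.26, adjusted p = 0.0249). Without PBS replicate 2 this call was lost (0.67, adjusted p = 0.127).

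With PBS the grafts had Ptcra at 177 and 82.5 CPM, and with ATO at 69.0 and 25.9 CPM, again with no overlap. It was 2.73-fold lower with ATO (log2 fold change -1.45, SE 0.42, adjusted p = 0.0423). The call was lost without PBS replicate 1 (-0.82, adjusted p = 0.221), in DESeq2 (adjusted p = 0.217) and with total counts in place of TMM (adjusted p = 0.0633). In thymus tumours the same gene was higher, not lower, in both ATO groups.

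The other co-receptor chains did not pass in the grafts. Cd8a had 806 and 597 CPM with PBS and 605 and 593 CPM with ATO, which overlap. Cd8b1 had 675 and 405 CPM with PBS and 313 and 400.1 CPM with ATO, without overlap (-0.60, SE 0.26, adjusted p = 0.135). Cd1d1 overlapped as well, at 17.0 and 20.5 CPM with PBS and 26.8 and 16.4 CPM with ATO. Arpp21, at 295 and 293 CPM with PBS and 339.6 and 184 CPM with ATO, was abundant in both groups.

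Among the factors, Tcf7 had 3528 and 3410 CPM with PBS and 2911 and 3136 CPM with ATO (-0.20, SE 0.21, adjusted p = 0.563). Lef1 had 697 and 533 CPM with PBS and 665 and 593 CPM with ATO. Both are factors of immature T cells, and each difference was smaller than its SE. Zbtb7b was low in every graft, at 3.28 and 2.82 CPM with PBS and 3.39 and 2.24 CPM with ATO. Runx3 was at 15.8 and 8.06 CPM with PBS and 9.37 and 8.29 CPM with ATO. Thymus and graft tables were normalized separately, so levels are not compared between them by a test.

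Stromal markers differed between the graft groups too. The 5 fibroblast markers summed to 308 and 149 CPM with PBS and 388 and 1186 CPM with ATO, with 3 of 5 higher. The 7 macrophage markers summed to 373 and 280 CPM with PBS and 135 and 102 CPM with ATO, with 2 of the 6 tested lower. Natural killer markers summed to at most 1.03 CPM, and B-cell markers to at most 6.98 CPM, in all 4 grafts. T-cell receptor complex genes summed to 6917 and 6000 CPM with PBS and 4866 and 3388 CPM with ATO, and 1 of 8, Cd3d, was lower (log2 fold change -1.12, SE 0.21, adjusted p = 0.0104). The part of these genes in the Cd4 and Ptcra differences was not tested.

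Between genes, levels were compared per kilobase of exon. In regressing tumours the order by mean CPM per kilobase was Tcf7 at 720.3 ± 240.4 (SD, n = 3), Cd8b1 at 535 ± 202, Cd8a at 436 ± 142 and Cd4 at 177 ± 57.8, then the rest at 28.5 or less. The spreads of Tcf7, Cd8b1 and Cd8a overlap, so their order is not fixed by these libraries. In progressing tumours Tcf7 had 341 ± 299.8, Cd8a 178 ± 25.6 and Cd8b1 170.3 ± 70.4 CPM per kilobase. In water tumours Tcf7 led with 209 ± 18.1, and Cd8b1 with 57.7 ± 87.0 and Cd8a with 44.9 ± 30.3 CPM per kilobase did not differ beyond their spread. The lowest were Ptcra at 0.0495 ± 0.0503 and Arpp21 at 0.0363 ± 0.0173. Arpp21 is long, so its 358 CPM in regressing tumours is 20.5 ± 5.45 CPM per kilobase.

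Ratios of 2 genes within a library do not depend on scaling between libraries. The CD8 beta to alpha ratio, Cd8b1 to Cd8a per kilobase, was 1.19, 2.37 and 0.0494 in water replicates 1, 2 and 3, and 0.621, 1.18 and 0.982 in progressing and 1.27, 1.25 and 1.11 in regressing replicates. Thymocytes carry alpha-beta dimers, whereas some innate-like cells and dendritic cells carry the alpha chain alone. Water replicate 3 had Cd8a at 209.8 CPM with little Cd8b1, and no ATO library had a ratio under 0.621. It also had the highest sum of gamma-delta and innate-like markers, 1159 CPM, and of dendritic cell markers, 139 CPM, and their part in the ratio was not tested.

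The Cd4 to Cd8a ratio per kilobase was 2.09, 0.176 and 0.184 in water, 0.782, 0.326 and 0.207 in progressing and 0.390, 0.422 and 0.410 in regressing tumours. Water replicate 1 alone had more Cd4 than Cd8a, and the 3 regressing libraries were nearly equal. In the grafts it was 0.111 and 0.0840 with PBS and 0.259 and 0.224 with ATO, with no overlap (log2 difference 1.32, exact two-sided permutation p = 0.333, the smallest that 2 against 2 can give).

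For the lineage factors, Zbtb7b to Runx3 per kilobase was 0.560, 0.281 and 0.156 in water, 1.72, 0.233 and 0.142 in progressing and 0.941, 1.59 and 3.05 in regressing tumours. Regressing libraries were above all water libraries (log2 difference 2.52, exact two-sided permutation p = 0.1, the smallest that 3 against 3 can give), and progressing libraries overlapped both. Among 16 such tests, 4 ratios in 4 comparisons, no adjusted p was under 1. Tcf7 to Lef1 was 29.5, 24.8 and 14.7 in water, 1.26, 62.4 and 13.9 in progressing and 33.4, 32.2 and 22.1 in regressing tumours, so the progressing libraries spanned the widest range.

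**Figure D3:**
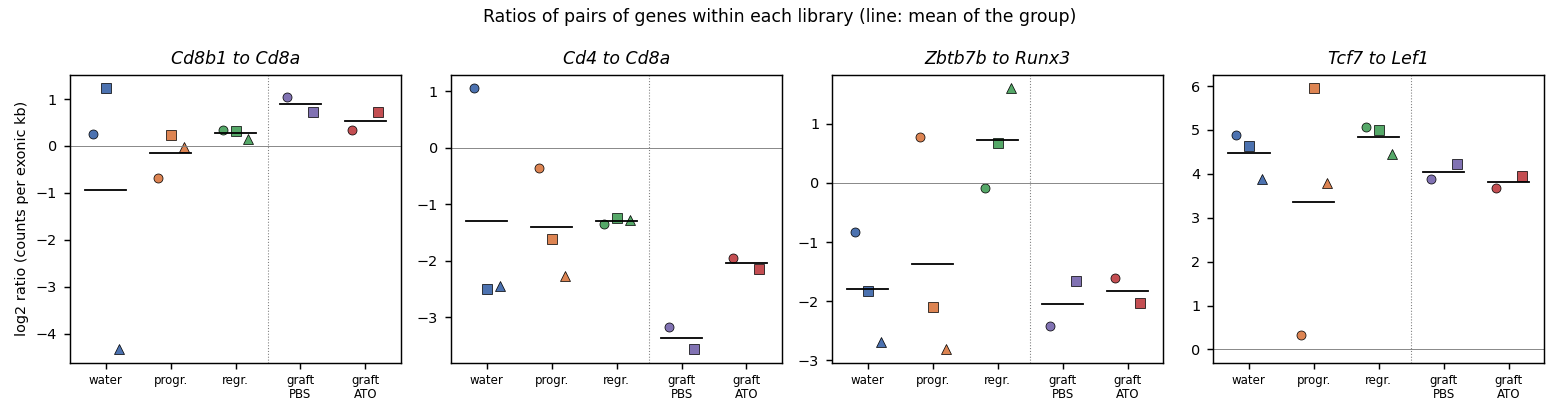
Log2 ratio of counts per exonic kilobase for 4 pairs of genes, 1 point per library with group means as lines. Water replicate 3 has the lowest Cd8b1 to Cd8a ratio (0.0494), regressing libraries sit above water for Zbtb7b to Runx3, and the Cd4 to Cd8a ratio is higher in both ATO grafts than in both PBS grafts.

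Other genes of the double-positive stage moved with Arpp21 and Ptcra in the thymus tumours. Of a list of 10 (among them Rag1, Rag2, Dntt, Themis, Satb1, Aqp11, Mns1, Ets2 and Cd24a), 7 were higher in regressing tumours than in water and 0 lower (0 also at an unadjusted p under 0.05, in DESeq2 and in limma-voom). Rag1, a subunit of the V(D)J recombinase, went from 0.617 to 2.29 CPM in water to at least 1506 CPM in regressing libraries (log2 fold change 10.67, SE 0.95, adjusted p = 0.00135). Its partner Rag2 was up by 10.53, the terminal transferase Dntt by 9.36 and the channel Aqp11 by 8.39. In progressing tumours 5 of 10 were higher and 0 lower (0 by those other counts too), led by Rag1 at 8.80, Dntt at 8.40, Rag2 at 8.10 and Aqp11 at 6.0. Between the outcomes 1 passed, Aqp11, higher in regressing tumours by 2.38. The list summed to 650 to 879 CPM in water, 2436 to 3606 CPM in progressing and 5070 to 9758 CPM in regressing libraries. In the grafts Dntt (-1.10) and Cd24a (-1.06) were lower with ATO and Mns1 (0.78) higher. Without regressing replicate 2, 4 of the 10 passed in regressing tumours, and between the outcomes 1 of 10 passed without progressing replicate 2 and 0 without any other library.

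A list of 5 Notch-driven pre-T genes holds Notch1, Notch3, Hes1, Dtx1 and Nrarp. Notch signalling drives cells through the stage at which Ptcra is made. In progressing tumours 2 of 5 were higher than in water, Notch1 by 3.73 and Notch3 by 2.24. In regressing tumours 0 of 5 passed in either direction in edgeR (1 higher and 0 lower at an unadjusted p under 0.05; DESeq2 called 1 higher, limma-voom none), and Notch1 was lower than in progressing tumours by a log2 fold change of -2.05. The sum was 783, 228 and 929 CPM in progressing replicates 1, 2 and 3, which puts replicate 2 lowest for both this list and Ptcra. It was 161 to 193 CPM in regressing and 77.5 to 93.5 CPM in water libraries. In the grafts it was 1190 and 1098 CPM with PBS and 1112 and 766 CPM with ATO. Without progressing replicate 1 or any water library 1 of the 5 passed in progressing tumours, and between the outcomes 1 of 5 passed without progressing replicate 2 and 0 without any other library.

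Genes of positive selection and lineage choice (Gata3, Tox, Patz1, Id3, Egr2, Cd5, Cd69, Itm2a and Nr4a1) included several that, like Zbtb7b, were lower in progressing tumours. There, 4 of 9 were lower than in water: Cd69, an activation marker of selected thymocytes, by -4.35, Cd5, a gauge of receptor signal strength, by -3.58, Tox by -2.75 and Id3 by -2.42 on the log2 scale. In regressing tumours 0 passed against water in edgeR (1 higher and 1 lower at an unadjusted p under 0.05; DESeq2 and limma-voom each called 1 higher). Against progressing tumours, 4 of 9 were higher in regressing tumours: Cd69 by 4.89, Cd5 by 3.51, Egr2 by 3.19 and Tox by 3.02. Cd5 was at 109 to 142 CPM in water, 4.73 to 13.5 CPM in progressing and 91.0 to 133 CPM in regressing libraries. Between the outcomes 1 of 9 passed without regressing replicate 1 and 2 of 9 without regressing replicate 2.

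Mature single-positive genes (a list of 9, among them Ccr7, S1pr1, Klf2, Il7r, Cd40lg, Itgae, Eomes and Tbx21) were lowest in progressing tumours. There, 8 of 9 were lower than in water, among them the cytokine receptor Il7r by -6.66 and Eomes by -5.87 on the log2 scale. In this comparison 4 of the 4 tested natural killer cell, 5 of 6 B-cell and 4 of 7 dendritic cell markers were lower too. The part of those cells in the differences of this list was not tested. Cd40lg, made by helper T cells, had at most 2 reads in each progressing library and was at least 186-fold lower than in water (adjusted p = 0.0131). Its water levels were 101, 0.305 and 21.0 CPM, so that water replicate 2 lay 1.39 times above the floor of 0.220 CPM, and without water replicate 1 the limit was 48.5-fold. In regressing tumours 1 of 9 was lower than in water (Eomes, -3.77), and 3 of 9 were higher than in progressing tumours, among them Cd40lg, at least 24.3-fold, and Ccr7, by 2.39 on the log2 scale. The list summed to 674 to 1483 CPM in water, 30.3 to 65.5 CPM in progressing, 289 to 391 CPM in regressing and 50.2 to 90.8 CPM in graft libraries. Without progressing replicate 3, 4 of 9 were called in progressing tumours, and Eomes lost its call in regressing tumours without regressing replicate 1 or 2. Between the outcomes 1 of 9 passed without progressing replicate 3 or any of the 3 regressing libraries.

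Among 10 early progenitor genes, Il2ra was higher in regressing tumours than in water (2.46) and Lmo2 (-2.78) and Cd44 (-1.61) were lower. In progressing tumours 6 of 10 were lower than in water, led by Bcl11a at -5.93, Lyl1 at -4.50, Mef2c at -4.02 and Hhex at -3.04, several of which are also made by B cells and myeloid cells. The B-cell markers summed to 1177, 3156 and 68.3 CPM in water, 4.13 to 39.5 CPM in progressing and 95.6 to 156 CPM in regressing libraries, and 5 of 6 were lower in progressing tumours than in water. Of 8 T-lineage factors, 3 were higher in regressing tumours (Bcl11b by 2.80, Myb by 2.71 and Runx1 by 1.29) and 4 in progressing tumours (Myb by 2.09, Runx1 by 1.88, Tcf12 by 1.88 and Bcl11b by 1.51), with 0 lower in each. For those 2 counts of 0, edgeR gave 0 and 1 lower at an unadjusted p under 0.05, and DESeq2 and limma-voom called 0. Of the 8 receptor complex genes, 3 were higher in regressing tumours than in water (Cd247 by 2.30, Lat by 2.17 and Lck by 1.96) and 2 in progressing tumours (Lat by 2.01 and Cd247 by 1.44), where Lcp2 was lower by -1.38. Without regressing replicate 2 none of these calls in regressing tumours held for the 3 lists, and without regressing replicate 1 1 T-lineage factor passed. In progressing tumours the counts fell to 2 of 10 early progenitor genes without progressing replicate 3, to 2 of 8 factors without water replicate 1 or progressing replicate 1 or 3, and to 0 of 8 receptor complex genes without water replicate 1 or 3.

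**Figure D4:**
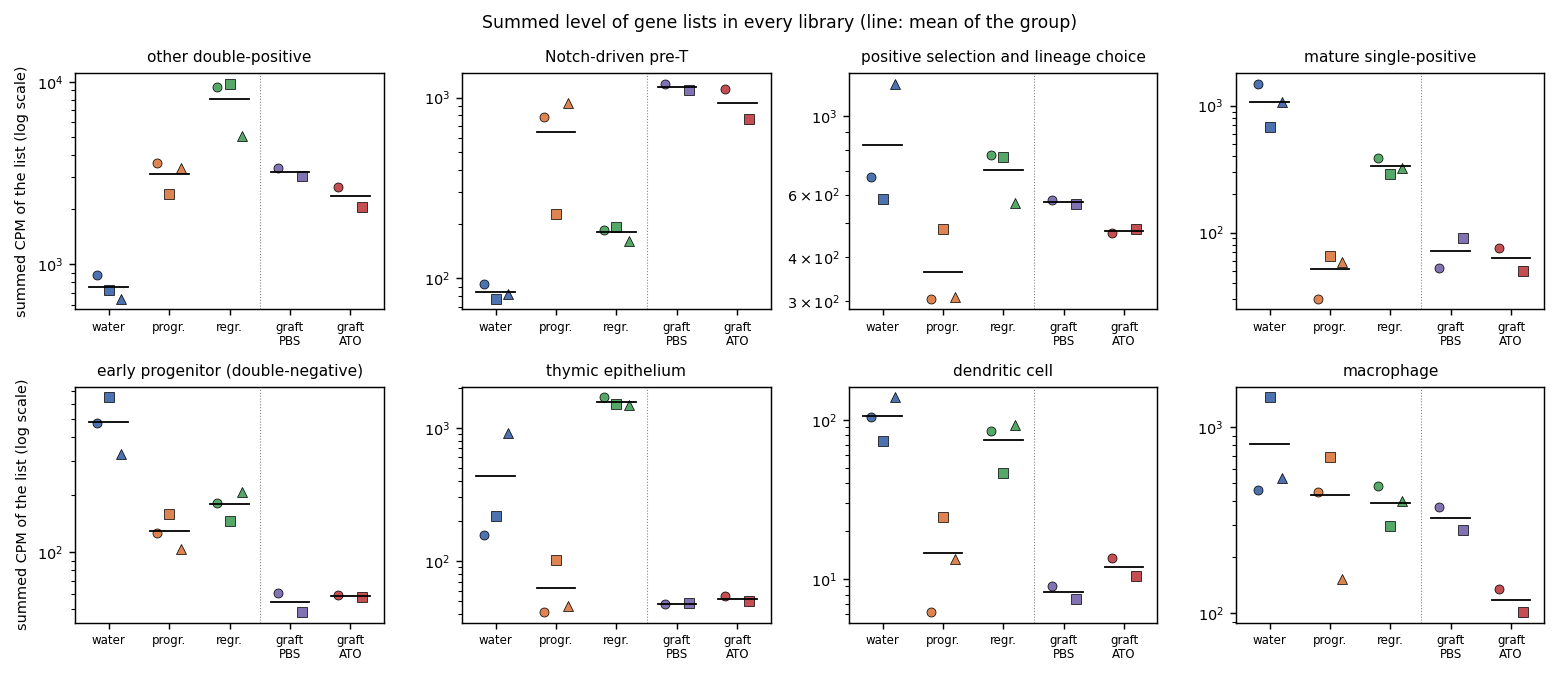
Summed CPM of 5 stage lists and 3 marker lists in each library on a log axis, with group means as lines. Double-positive genes are above water in all ATO-treated thymus libraries, mature single-positive genes are lowest in progressing and graft libraries, and thymic epithelium markers are highest in regressing libraries (1483 to 1692 CPM).

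Across the 9 thymus libraries, Arpp21 correlated most with Dntt (Pearson's r = 0.995) and Gas8 (0.992), on log2(CPM + 1) among 14175 genes. These correlations describe 9 libraries in 3 groups that share tissue, genotype and depth, and the ranking picks the highest of many. For Cd4 the closest were Zmynd11 (0.990) and Mier3 (0.981), for Cd8a Scmh1 (0.963) and Kcnh3 (0.952), and for Cd8b1 Gsk3a (0.965) and Pip4k2a (0.958). Ptcra was closest to Epg5 (0.989) and Trbv31 (0.980), a T-cell receptor beta variable gene, and Cd1d1 to Mcoln1 (0.958) and Ccng2 (0.956). Tcf7 was closest to Epb41 (0.984) and Pam16 (0.975), Lef1 to Zfp184 (0.971) and Hrh3 (0.965), Zbtb7b to Phyhd1 (0.982) and Slpi (0.957), and Runx3 to Cnksr3 (0.988) and Klk8 (0.979). Among the 10 genes themselves, Cd4 went with Cd1d1 (r = 0.942) and Arpp21 (0.921), and Ptcra with Lef1 (0.883). Runx3 ran opposite to Ptcra (-0.943) and Lef1 (-0.932), and Tcf7 and Lef1 were nearly unrelated (-0.11).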

How the data were processed

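RNA was sequenced from 9 thymus samples of W/W mice and 4 grafted tumours. For each system the authors deposited a table of raw counts and exonic gene sizes; the deposited FPKM columns and the U937 cells were not used. Per the labels' protocols, RNA was isolated with TRIzol and libraries made with a SMARTer mRNA-Seq kit. Part of that protocol text describes cultured cells, not these tissues. Per the submitters' processing notes, FastQC 0.10.1, cutadapt 1.9.1, HISAT2 2.0.1 and GRCm38/mm10 were used; the counting program, strand setting and annotation are not given in the sources used here. Thymus gene coordinates equal GENCODE vM21 for 99.3% of genes; graft coordinates do so for 2.76% and are not printed.

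Counts were tested with edgeR 4.0.16 (R 4.3.3; filterByExpr, TMM, quasi-likelihood, Benjamini-Hochberg), the 9 thymus libraries in 1 fit of 3 groups and the 4 grafts alone. A floor of 3 counts was set for groups in which no library had more, and floors cover counting error only. Ratios, with 0.5 added to each count, had exact permutation tests. Alternatives were RLE and total-count scaling, DESeq2 1.42.0, limma-voom (limma 3.58.1), no filter, the replicate block, the compared groups alone and leaving out each library. Fits without the 2 libraries of low TMM factor and with crossed graft numbers were added after seeing the data. The fitting was tested on simulated data. The members, gene lists and tests were chosen with earlier results of these data known. All 10 genes are named in each comparison. Of each list at most the 4 largest changes that passed are named, and the 2 genes most correlated with each of the 10; some list members are counted but not reported here by name.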

Additional observations from a re-analysis of the deposited data

Results flagged for a closer look

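Ptcra was flagged because its direction with ATO differed between the systems: both ATO grafts were below both PBS grafts (log2 fold change -1.45), while all 6 ATO-treated thymus tumours were above all 3 water tumours. Cd8b1 (-0.60 in the grafts) and Tcf7 (-0.20 in the grafts) were flagged in the same way against the regressing tumours alone, whose libraries were all above water (3.21 and 1.79). These differences between systems were not tested, since the tables were normalized separately and the thymus groups are defined by outcome. Zbtb7b was flagged because its difference from water was not the same in the 2 outcomes, by the test of regressing against progressing tumours itself (2.70, edgeR adjusted p = 0.0271), a call that held in 1 of 6 fits without a library. The graft groups have 2 libraries each and the thymus groups 3, so no test for a single outlying library was made.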

How the results depend on the processing

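With 2 or 3 libraries a group, single libraries set many calls, and genes near 0 reads in water give only bounds. Leaving out 1 library gave 2 to 6 called members of the 10 and 60 to 1190 called genes for regressing against water, with 60 without regressing replicate 2 and 86 without regressing replicate 1. Progressing against water gave 3 to 6 members and 907 to 2557 genes (907 without progressing replicate 3), regressing against progressing 0 to 2 members and 177 to 2000 genes (177 without regressing replicate 1), and the grafts 1 to 3 members and 685 to 2420 genes (685 without PBS replicate 1). In the grafts such a fit leaves 1 library in a group, which is assumed to vary like the others. Cd4 and Arpp21 kept their calls against water in every thymus fit run.

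DESeq2 called 3144, 3859, 4100 and 2655 genes for regressing against water, progressing against water, regressing against progressing and the grafts, and 7, 7, 1 and 1 members. Without a filter on low counts the genes were 2689, 3594, 3621 and 3274 and the members 9, 8, 4 and 3. Fits of the compared groups only gave 8 members for regressing against water, 882 genes for progressing against water and 3 members for regressing against progressing. Without both libraries of low TMM factor regressing against progressing gave 3645 genes and 3 members. Total counts without TMM moved the median of all genes from -0.11 to 0.09, from -0.07 to 0.13 and from 0.04 to 0.23 in regressing against water, regressing against progressing and the grafts, and left 1 graft member called. The cause was not tested.

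With the replicate block, progressing against water gave 1405 genes, regressing against progressing 2 members and the grafts 1350 genes; among the 10 genes the block changed the calls of Zbtb7b in progressing tumours (adjusted p = 0.0774) and of Cd4 between the outcomes, which passed (1.37, adjusted p = 0.0368). Deviations of same-numbered thymus libraries from their group means had correlations of -0.12 to 0.14. In 11 of 18 checks, each among the 3 libraries of another group, a library was closest to its own number. These values cannot decide whether the numbers mark a pairing or a batch. Crossing the graft numbers, whose correlation was -0.13, gave 3298 genes and 3 members.

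Values that changed sign belonged to differences that had not passed. Runx3 between the outcomes was 0.011 with RLE, 0.29 with total counts, 0.021 in DESeq2, 0.86 in limma-voom, 0.076 without a filter, 0.28 with the replicate block and 1.10 without both libraries of low TMM factor. Tcf7 in progressing tumours was -0.27 without those 2 libraries. In the grafts Arpp21 (0.019) and Zbtb7b (0.075) changed sign with total counts, and Lef1 in DESeq2 (-0.0095) and without a filter (-0.015). Leaving out 1 library, ranges crossing 0 were -0.049 to 0.93 for Zbtb7b in regressing and -0.22 to 1.13 for Tcf7 in progressing tumours against water, and -1.86 to 0.0073 for Ptcra, -1.07 to 0.80 for Lef1 and -0.59 to 1.05 for Runx3 between the outcomes. In the grafts they were -0.20 to 0.50 for Cd1d1, -0.69 to 0.19 for Arpp21, -0.17 to 0.23 for Lef1, -0.46 to 0.14 for Zbtb7b and -0.87 to 0.12 for Runx3. Log2 ratios crossed 0 likewise: Cd8b1 to Cd8a in regressing (-0.48 to 2.31) and progressing tumours (-0.91 to 1.89) against water, and Cd4 to Cd8a in these (-0.61 to 1.18 and -0.72 to 1.06) and between the outcomes (-0.31 to 0.65). So did Zbtb7b to Runx3 in progressing tumours (-0.67 to 1.12) and grafts (-0.16 to 0.59), and Tcf7 to Lef1 in progressing tumours (-2.40 to 0.41) and between the outcomes (-0.033 to 2.78).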
